A study of Saccharomyces cerevisiae with 20 samples.

Results

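Ribosome profiling libraries of the budding yeast Saccharomyces cerevisiae were examined at 7 annotated features that lie opposite or beside genes for ribosome assembly factors. The 7 were taken by name from the 7127 features of the deposited tables, with earlier results of these data known. YLR198C lies opposite NOP56, YPR142C opposite RRP15, YNL174W opposite NOP13, YMR290W-A opposite HAS1, YKL083W opposite RRP14 and YBR266C (SLM6) opposite REI1, while YGR160W lies beside NSR1. The study addressed how a formyl group on the initiator methionine bears on translation. Footprints, the stretches of RNA that an 80S ribosome shields from RNase I, were counted in 20 libraries in 10 groups of 2.

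The growth protocol, shared by all libraries, describes fmt1 cells carrying EcFMT, the methionyl-tRNA formyltransferase of E. coli, or its R42L form, in SC medium at 30 °C up to an A600 of about 0.5. Of the 10 groups, 8 pair EcFMT or R42L with the strains RLI1_depl, NIP1_depl, hrc1D and arf1D. The names point to Rli1, an ATPase that splits ribosomes after termination, to Nip1, a subunit of initiation factor eIF3, and to Arf1, a GTPase of Golgi traffic, and hrc1D is spelled as in the labels. The labels do not say how a depletion was made. The last 2 groups are labelled MTF and MTFi, which the labels neither spell out nor tie to either form, and are called the base strain here. Their library labels differ from those of the other 16 libraries, so a difference from the base strain and a difference between the 2 sets of libraries cannot be told apart. Whether replicates came from separate cultures is not labelled, and each p-value speaks only of the spread among these libraries, which may be technical.

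Ribosome assembly in yeast starts in the nucleolus, where small nucleolar ribonucleoproteins, helicases and scaffold proteins act on the nascent ribosomal RNA. It ends in the cytoplasm, where the last factors leave the pre-60S particle. NOP56 encodes a core protein of the box C/D particles that guide ribosomal RNA methylation, HAS1 a DEAD-box RNA helicase, and NSR1 a nucleolin-like protein. RRP15, RRP14 and NOP13 encode nucleolar proteins, the first 2 needed for ribosomal RNA processing. REI1 encodes a cytoplasmic factor that acts late on the pre-60S particle. The genes of early assembly are known to be regulated together with growth in yeast.

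On the features named for the assembly genes themselves almost nothing was counted. NOP56, RRP15, RRP14 and NSR1 held 0 counts over the 20 libraries, NOP13 and HAS1 3 counts each and REI1 6. A count of 0 allows up to 3 counts, or 6.01e-05% of all counts, by counting error only. The 7 features opposite or beside them held 36837 counts, 0.738% of the total. How the counting treated strand is not stated in the sources used, so reads from a gene and from its partner on the other strand cannot be told apart. All values below are therefore given under the names of the features, and whether their reads came from the assembly genes was not tested.

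The same holds for the series as a whole. Of 4993355 expected counts, 95.99% fell on 683 open reading frame features that are not in the RefSeq table. RLI1 and FMT1 held 0 counts in all libraries, NIP1 2.0 and ARF1 2.5, so the strain labels could not be checked at these genes. Library totals ran between 58090 in RLI1_depl with R42L and 505676 in arf1D with EcFMT. The replicates of MTF differed most, with a chi-square of 10.05 per degree of freedom, against 3.42 in hrc1D with R42L and 1.47 to 1.88 in the other 8 groups. No group held a library deposited in duplicate by this measure. In bulk libraries, fewer cells and fewer footprints per cell cannot be told apart, and without RNA libraries a footprint level cannot be divided by a transcript level.

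YGR160W was the most abundant of the 7, with 18153 counts in all and rank 26 among all features. YNL174W followed with 5175 counts, YLR198C with 4250, YMR290W-A with 2893, YPR142C with 2846, YKL083W with 1797 and YBR266C with 1724, the last at rank 170. The lengths are 612 nt for YGR160W, 573 nt for YNL174W, 360 nt for YLR198C, 348 nt for YMR290W-A, 564 nt for YPR142C, 615 nt for YKL083W and 453 nt for YBR266C. RSEM's posterior standard deviation was at most 0.62 counts for any of them in any library. As counted, hardly any of their reads were divided with another feature, which does not tell the strand they came from. YBR266C is in the RefSeq table, on chromosome II from 739936 to 740388 of the R64 assembly. It lies wholly within REI1 (II, 739841 to 741022) on the other strand, an overlap of 453 nt. The other 6 features are not in that table, and their coordinates are not used here. Their partners lie at XII, 546097 to 547611 (NOP56), XVI, 818323 to 819075 (RRP15), XIV, 307401 to 308612 (NOP13), XIII, 850074 to 851591 (HAS1), XI, 281025 to 282329 (RRP14) and VII, 806412 to 807656 (NSR1).

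Levels are given first in TPM, the authors' deposited value, in which feature length and library size are divided out. Beside NSR1, YGR160W stood at 1127 and 848 TPM in RLI1_depl with EcFMT and at 688 and 853 TPM in RLI1_depl with R42L. In NIP1_depl it stood at 2274 and 2176 TPM with EcFMT and at 2819.9 and 2882 TPM with R42L. In hrc1D it stood at 1288 and 1339 TPM with EcFMT and at 1846 and 1414 TPM with R42L. The libraries of these 3 strains overlapped neither one another nor those of arf1D and the base strain. In arf1D it stood at 3160.1 and 2971 TPM with EcFMT and at 2985 and 3009 TPM with R42L, and in the base strain at 4161 and 4891 TPM in MTF and at 3040.3 and 3027 TPM in MTFi. The group means spanned 5.87-fold between MTF and RLI1_depl with R42L, the widest span of the 7 features.

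Opposite REI1, YBR266C stood at 347 and 400.35 TPM in RLI1_depl with EcFMT and at 248 and 319 TPM in RLI1_depl with R42L. In NIP1_depl it stood at 232 and 199 TPM with EcFMT and at 248 and 244 TPM with R42L, and in hrc1D at 267 and 261 TPM with EcFMT and at 324 and 272 TPM with R42L. In arf1D it stood at 382 and 468 TPM with EcFMT and at 419 and 474 TPM with R42L. The base strain was split, with 514 and 496 TPM in MTF and 201 and 272 TPM in MTFi. The highest and the next group in order, MTF and arf1D with R42L, did not overlap, while the libraries of MTFi overlapped those of both NIP1_depl groups, the other 2 at the low end.

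The feature opposite RRP15 was highest in the depletion strains. YPR142C stood at 886 and 975 TPM in RLI1_depl with EcFMT and at 565 and 814 TPM with R42L, and in NIP1_depl at 586 and 622 TPM with EcFMT and at 659 and 851 TPM with R42L. It was lowest in hrc1D, at 315 and 312 TPM with EcFMT and 285 and 279 TPM with R42L. It stood at 386 and 461 TPM in arf1D with EcFMT, at 441 and 357 TPM in arf1D with R42L, at 424 and 507 TPM in MTF and at 368 and 343 TPM in MTFi. Every RLI1_depl and NIP1_depl library lay above every library of arf1D and of the base strain.

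The feature opposite HAS1 was also higher in the depletion strains on this scale. YMR290W-A averaged 957 ± 179 TPM in RLI1_depl, 1331 ± 131 TPM in NIP1_depl, 861 ± 51.2 TPM in hrc1D, 617 ± 27.4 TPM in arf1D and 643 ± 181 TPM in the base strain (SD, n = 4 each). The lowest NIP1_depl library, at 1165 TPM, lay above the highest of the base strain, at 896 TPM, while the RLI1_depl and hrc1D libraries overlapped those of the base strain. YKL083W, opposite RRP14, averaged 336 ± 14.4 TPM in RLI1_depl, 173 ± 54.5 TPM in NIP1_depl, 186 ± 40.7 TPM in hrc1D, 360 ± 41.2 TPM in arf1D and 226 ± 25.8 TPM in the base strain (SD, n = 4 each). The RLI1_depl and arf1D libraries all lay above those of the other 3 strains.

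The features opposite NOP13 and NOP56 varied least. YNL174W averaged 849 ± 130 TPM in RLI1_depl, 644 ± 71.6 TPM in NIP1_depl, 534 ± 67.5 TPM in hrc1D, 932 ± 56.8 TPM in arf1D and 942 ± 127 TPM in the base strain (SD, n = 4 each). Its group means spanned 1.86-fold, and the NIP1_depl and hrc1D libraries all lay below those of arf1D and of the base strain. YLR198C averaged 848 ± 215 TPM in RLI1_depl, 1029 ± 130 TPM in NIP1_depl, 1066 ± 113 TPM in hrc1D, 1147 ± 47.5 TPM in arf1D and 1182 ± 258 TPM in the base strain (SD, n = 4 each). Its group means spanned 1.95-fold, and of the 9 steps between neighbours in the order of the groups only 2 had libraries that did not overlap. For YGR160W 7 of the 9 steps had none that overlapped, for YPR142C 4, for YBR266C 3, and for YNL174W, YMR290W-A and YKL083W 2 each.

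**Figure D1:**
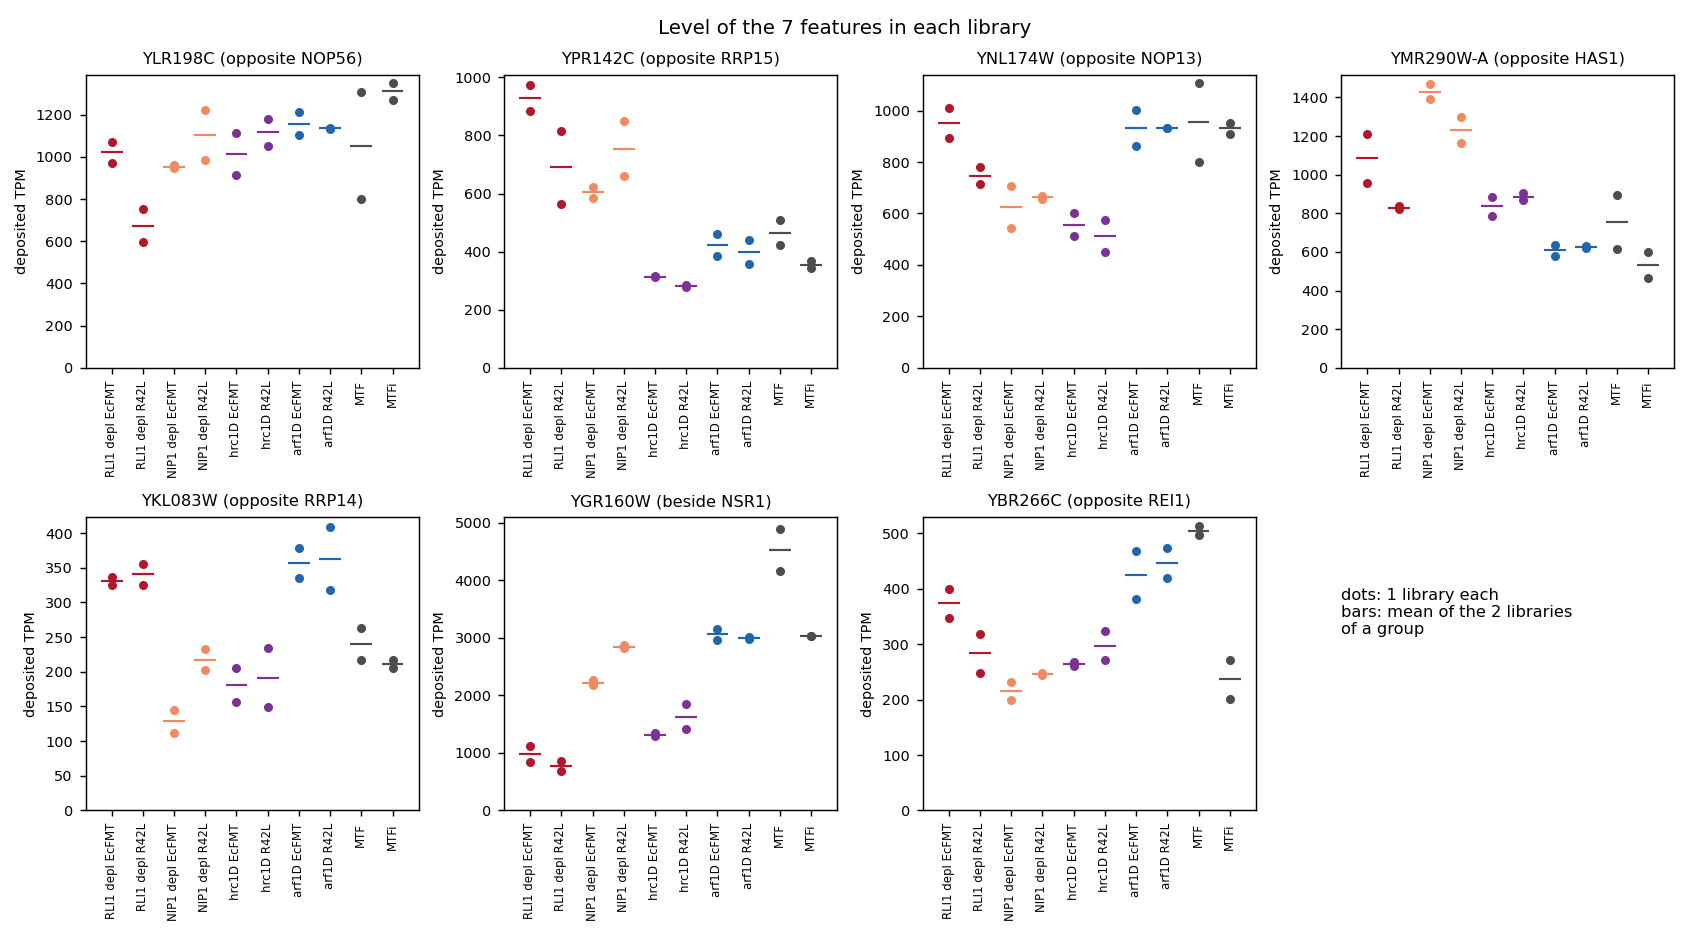
Deposited TPM of each of the 7 features (vertical axis, linear from 0) in the 10 groups, with 1 dot per library and a bar at the mean of the 2 libraries. YGR160W was lowest in RLI1_depl, at 688 to 1127 TPM, while YPR142C was higher in all RLI1_depl and NIP1_depl libraries than in any arf1D, MTF or MTFi library.

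The make-up of the 7 within a library does not depend on how libraries are scaled to each other. YGR160W took 21.9% ± 3.96 of the counts on the 7 features in RLI1_depl with EcFMT and 22.1% ± 0.502 with R42L. It took 44.7% ± 0.578 and 48.7% ± 1.97 in NIP1_depl with EcFMT and R42L, and 37.2% ± 0.171 and 41.7% ± 2.33 in hrc1D with EcFMT and R42L. In arf1D it took 51.2% ± 2.22 with EcFMT and 50.7% ± 0.976 with R42L, and in the base strain 60.8% ± 2.13 in MTF and 53.7% ± 0.0669 in MTFi (SD of the pair of libraries, n = 2). It held the largest mean share of the 7 in every group.

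In RLI1_depl YNL174W, opposite NOP13, came close to it with 19.7% ± 2.07 with EcFMT and 20.1% ± 1.31 with R42L, and YPR142C, opposite RRP15, took 19.0% ± 1.65 with EcFMT and 18.0% ± 2.31 with R42L. In NIP1_depl YPR142C took 11.2% ± 0.963 with EcFMT and 11.8% ± 1.47 with R42L, against 6.5% ± 0.807 and 6.18% ± 0.84 in arf1D with EcFMT and R42L, 5.73% ± 0.126 in MTF and 5.78% ± 0.261 in MTFi (SD over both libraries). YMR290W-A, opposite HAS1, took 11.5% to 15.8% as a group mean in RLI1_depl, NIP1_depl and hrc1D, against 5.57% and 5.81% in the arf1D groups, 5.49% in MTF and 5.15% in MTFi. The share of YMR290W-A was thus higher in every group of those 3 strains than in any other group.

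YKL083W, opposite RRP14, and YBR266C, opposite REI1, held at most 9.86% and 6.04% as a group mean, whereas that of YLR198C, opposite NOP56, was largest in hrc1D. YKL083W took 7.38% ± 0.312 and 9.86% ± 0.644 in RLI1_depl with EcFMT and R42L, against 2.59% ± 0.364 and 3.72% ± 0.154 in NIP1_depl with EcFMT and R42L. YLR198C took 16.4% in each hrc1D group as a mean, against 11% and 10.9% in the arf1D groups, 7.9% in MTF and 13.2% in MTFi. YBR266C took 3.15% ± 0.202 and 3.06% ± 0.21 in NIP1_depl with EcFMT and R42L and 3.05% ± 0.66 in MTFi, and 4.99% to 6.04% as a mean in the other 7 groups.

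**Figure D2:**
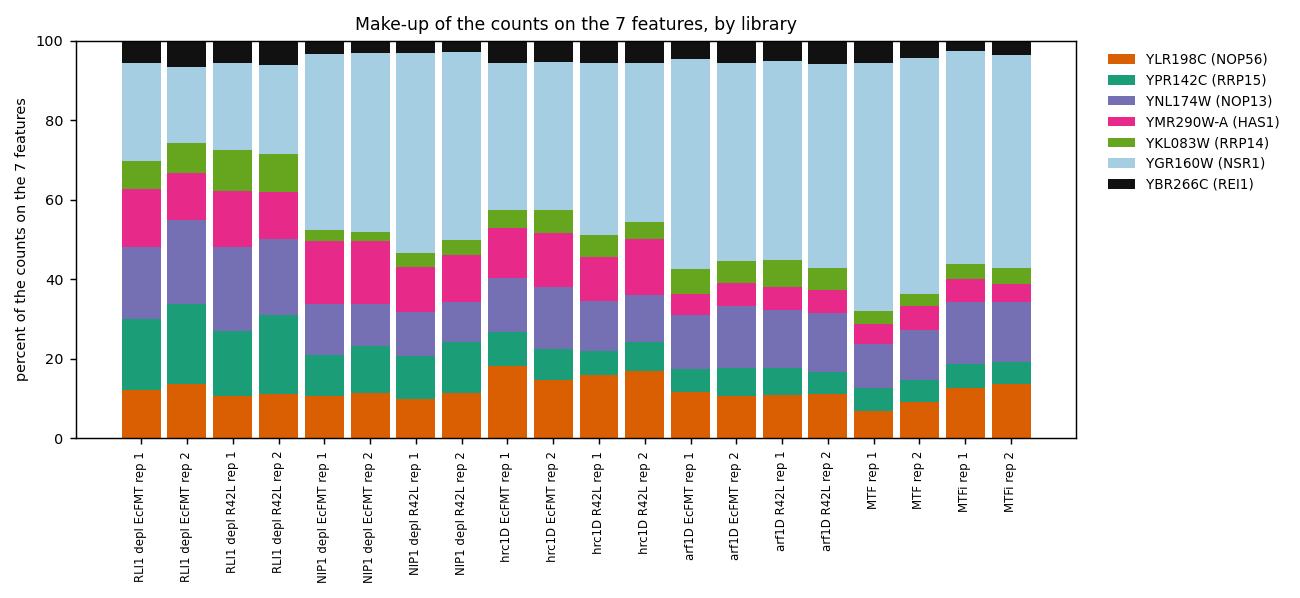
Percent of the counts on the 7 features (vertical axis) that each feature holds, in stacked bars with 1 bar per library. YGR160W held about 22% in the RLI1_depl groups and 50.7% to 60.8% as a group mean in arf1D, MTF and MTFi, and YBR266C, at the top, was thinnest in NIP1_depl and MTFi.

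The nucleolar side was then set against the late cytoplasmic side. Counts on YBR266C were divided by the summed counts on the other 6 features of the same library, which cancels any scaling. NIP1_depl had the lowest strain mean of YBR266C counts per 100 nucleolar-side counts, at 3.41 and 3.1 with EcFMT and 3.32 and 3.0 with R42L. By group mean MTFi was lowest, at 3.15, just under NIP1_depl with R42L at 3.16 and with EcFMT at 3.25. RLI1_depl held the most, at 5.85 and 7.01 with EcFMT and 6.04 and 6.5 with R42L. In hrc1D the ratio was 5.93 and 5.59 with EcFMT and 5.85 and 5.93 with R42L, and in arf1D 4.87 and 6.03 with EcFMT and 5.39 and 6.27 with R42L. In the base strain it was 5.93 and 4.58 in MTF and 2.65 and 3.64 in MTFi. No NIP1_depl library overlapped RLI1_depl, hrc1D or arf1D, while the base strain overlapped each of the other 4 strains.

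By strain the means were 6.35 ± 0.518 in RLI1_depl, 3.21 ± 0.19 in NIP1_depl, 5.82 ± 0.161 in hrc1D, 5.64 ± 0.634 in arf1D and 4.2 ± 1.4 in the base strain (SD, n = 4 each). Differences of the log2 ratio were tested by exact two-sided permutation tests over libraries, with Benjamini-Hochberg adjustment over 8 strain comparisons. NIP1_depl minus arf1D was -0.81 (exact permutation p = 0.0286, adjusted p = 0.114) and RLI1_depl minus NIP1_depl 0.98 (exact permutation p = 0.0286, adjusted p = 0.114). Each of these p-values is the smallest that 4 libraries against 4 allow, and neither passes after adjustment. With 8 comparisons adjusted together, this smallest p passes only where several of them reach it. RLI1_depl minus arf1D was 0.17 (exact permutation adjusted p = 0.19) and hrc1D minus arf1D 0.05 (exact permutation adjusted p = 0.6).

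Against the base strain the log2 ratio differed by 0.66 in RLI1_depl, -0.33 in NIP1_depl, 0.53 in hrc1D and 0.48 in arf1D, with exact permutation adjusted p = 0.152, 0.327, 0.171 and 0.183 in that order. Without MTF replicate 1 the values for RLI1_depl, hrc1D and arf1D were 0.84, 0.72 and 0.67, each with exact permutation adjusted p = 0.0457. That was the only 1 of 8 left-out libraries with which these comparisons passed the threshold. Passing again required several of the 8 strain comparisons to reach the smallest possible p together, so no comparison passed by itself. It is the highest base library, at 5.93 per 100, and leaves both MTFi libraries, at 2.65 and 3.64, with MTF replicate 2 at 4.58. The form of the enzyme gave no detectable difference of the ratio, at -0.01 for EcFMT minus R42L over 4 strains (exact permutation within strains, p = 0.795). MTF minus MTFi was 0.75, with p = 0.333, the smallest that an exact permutation of 2 libraries against 2 allows.

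YGR160W, 20.4% to 66% of the nucleolar-side counts of a library, had a large part in these ratios. Per count on the other 5 nucleolar-side features there were 0.305 ± 0.0401 counts on YGR160W in RLI1_depl, 0.934 ± 0.101 in NIP1_depl, 0.72 ± 0.0939 in hrc1D, 1.17 ± 0.0656 in arf1D and 1.51 ± 0.337 in the base strain (SD, n = 4 each). With YGR160W left out, YBR266C counts per 100 counts on the other 5 features were 8.28 ± 0.475 in RLI1_depl, 6.21 ± 0.498 in NIP1_depl, 10.0 ± 0.681 in hrc1D, 12.2 ± 1.31 in arf1D and 10.9 ± 5.02 in the base strain (SD, n = 4 each). On that measure the log2 ratio of RLI1_depl minus arf1D was -0.56 and that of hrc1D minus arf1D -0.28, both opposite in sign to the values with YGR160W. NIP1_depl minus arf1D was -0.97 and RLI1_depl minus NIP1_depl 0.42, each of the 4 with exact permutation p = 0.0286 and adjusted p = 0.0571. NIP1_depl thus had the lowest strain mean with and without YGR160W, whereas the place of RLI1_depl depended on it.

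**Figure D3:**
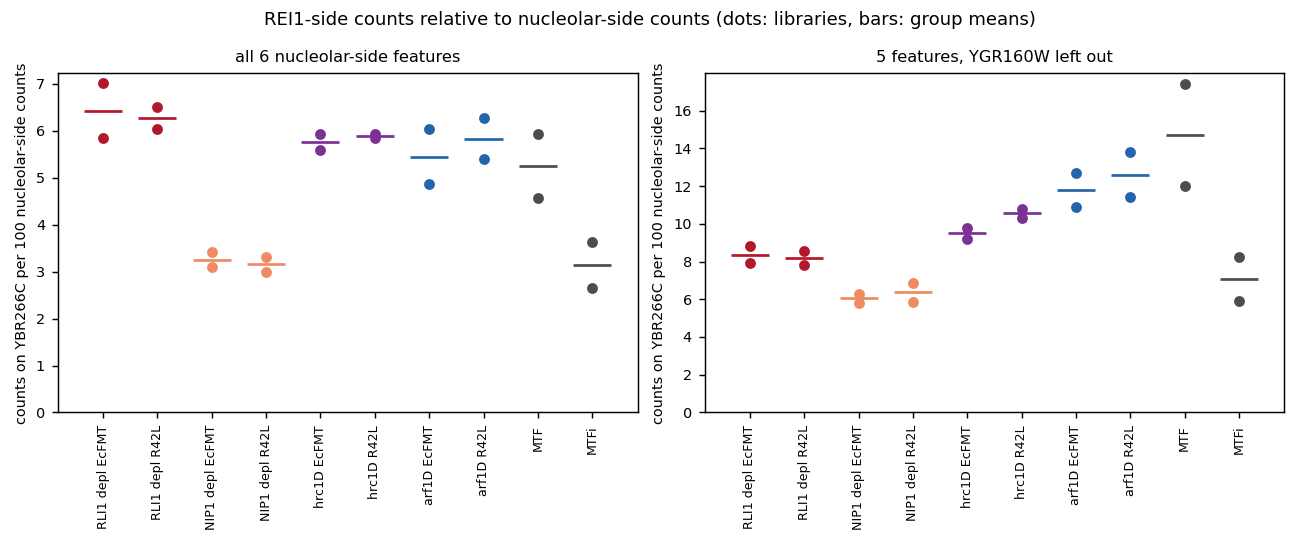
Counts on YBR266C, opposite REI1, per 100 counts on all 6 nucleolar-side features (left) and on 5 of them without YGR160W (right), with 1 dot per library and bars at group means. RLI1_depl averaged 6.35 on the left, above arf1D at 5.64, and 8.28 on the right, below arf1D at 12.2. NIP1_depl had the lowest strain mean in both panels, but on the left the MTFi group, at 3.15, lay just below both NIP1_depl groups.

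Relative to each other, the 6 nucleolar-side features were therefore not a uniform block. Per count on YBR266C there were 3.09 ± 0.162 counts on YPR142C in RLI1_depl and 3.72 ± 0.56 in NIP1_depl, against 1.2 ± 0.17 in arf1D and 1.56 ± 0.55 in the base strain (SD, n = 4 each). Per count on YBR266C there were 2.0 ± 0.169 counts on YLR198C in RLI1_depl and 3.49 ± 0.413 in NIP1_depl, against 2.08 ± 0.298 in arf1D and 3.02 ± 1.69 in the base strain (SD, n = 4 each). For YMR290W-A the values were 2.23 ± 0.398 in RLI1_depl, 4.39 ± 0.77 in NIP1_depl and 2.33 ± 0.252 in hrc1D, against 1.07 ± 0.0746 in arf1D and 1.45 ± 0.567 in the base strain (SD, n = 4 each). These within-library ratios are given as a description, with no test.

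Differences of single features were tested with edgeR's quasi-likelihood test on 1401 features that passed a filter on low counts, all 7 among them, with Benjamini-Hochberg adjustment over all 1401 and calls at an adjusted p under 0.05. Libraries were scaled by TMM, the trimmed mean of M-values, whose factors ran between 0.365 and 3.25. Log2 changes are therefore relative to the trimmed average feature. Under plain library totals the median of all features moved by up to 4.53 on the log2 scale, so library totals are given beside TMM for the strain comparisons. The strain comparisons share the libraries of their common strain and are not independent of each other.

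Between EcFMT and R42L, members were called in RLI1_depl alone. There 4 of the 7 rose with EcFMT, where 3.21% of all features were called, 2.57% higher and 0.642% lower. Among the 246 features with a mean count of at least 50, as all 7 are, 15.4% were called, 33 higher and 5 lower. YLR198C stood at 333 and 352 CPM (counts scaled to a common TMM library size) with EcFMT, against 159 and 201 CPM with R42L. Its log2 change was 0.9 (SE 0.23, edgeR adjusted p = 0.00462). YPR142C changed by 0.72 (SE 0.2, adjusted p = 0.0183), YNL174W by 0.67 (SE 0.2, adjusted p = 0.0259) and YGR160W by 0.65 (SE 0.18, adjusted p = 0.0127). YMR290W-A stood at 0.7 (adjusted p = 0.0535), YBR266C at 0.69 (adjusted p = 0.229) and YKL083W at 0.27 (adjusted p = 0.758). The median of the 7 was 0.69, against 0.04 over all features and 0.32 over the 246 with a mean count of at least 50.

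None of these calls held in every fit. With library totals as the scale, 0 members were called in RLI1_depl, at log2 changes of 0.61 for YLR198C, 0.43 for YPR142C, 0.38 for YNL174W and 0.35 for YGR160W, where 2.64% of all features were called. Without RLI1_depl R42L replicate 1, the shallowest library, 0 were called. Without EcFMT replicate 1 there was 1 call (YLR198C), without EcFMT replicate 2 also 1 (YGR160W), and without R42L replicate 2 there were 3. Over all features the 45 calls fell to between 11 and 19 when any 1 of these 4 libraries was left out. The REI1-side ratio, which needs no scaling, was 6.43 ± 0.82 per 100 nucleolar-side counts in RLI1_depl with EcFMT and 6.27 ± 0.325 with R42L (SD over both libraries). The members' summed share of the library was 0.723% and 0.694% with EcFMT, against 0.484% and 0.58% with R42L.

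In NIP1_depl, hrc1D and arf1D edgeR called none of the 7 between EcFMT and R42L, where the percent called of all features was 0 in each and 43, 58 and 40 features had an unadjusted p under 0.05. DESeq2 called none of the 7 either. The largest member difference was that of YKL083W in NIP1_depl, at 112 and 88.3 CPM with EcFMT and 153 and 168 CPM with R42L, or -0.67 on the log2 scale (95% interval -1.22 to -0.11, adjusted p = 1, edgeR). A test of whether the EcFMT effect differs between the 4 strains called YGR160W (F = 7.43, adjusted p = 0.0134, edgeR), where 0.714% of all features were called. Its log2 change for EcFMT minus R42L was 0.65 in RLI1_depl, -0.28 in NIP1_depl, -0.33 in hrc1D and 0.02 in arf1D. The call was lost without any 1 of the 4 RLI1_depl libraries (adjusted p = 0.0559 to 0.918, edgeR), any 1 of the 4 NIP1_depl libraries (0.0927 to 0.177) or hrc1D R42L replicate 1 (0.136). For the other 6 features the adjusted p was 0.099 (YLR198C) or higher.

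Between MTF and MTFi, YBR266C and YGR160W rose, where 1.71% of all features were called, 0.286% higher and 1.43% lower. Among the 246 features with a mean count of at least 50, 6.91% were called, 4 higher and 13 lower. YBR266C stood at 1088 and 1072 CPM in MTF and at 399 and 695 CPM in MTFi, which did not overlap, and rose by 0.96 on the log2 scale (SE 0.2, edgeR adjusted p = 0.000547). YGR160W rose by 0.49 (SE 0.13, edgeR adjusted p = 0.0233), and its libraries did not overlap either. The SE and p-values use a spread shared over all 20 libraries, whereas the MTF replicates differed most, with a chi-square of 10.05 per degree of freedom. They may therefore be too small for this pair of groups. Both lost the call without MTFi replicate 1, at 0.67 for YBR266C (adjusted p = 0.0879) and 0.36 for YGR160W (adjusted p = 0.119), and YGR160W also without MTF replicate 2 (0.38, adjusted p = 0.41). YLR198C stood at -0.4 (adjusted p = 0.298) and was called lower without MTFi replicate 1 (-0.57, adjusted p = 0.03) or MTF replicate 2 (-0.8, adjusted p = 0.0154). The other 4 features lay between -0.04 and 0.45 and were not called. With library totals YMR290W-A was called beside YBR266C and YGR160W (0.55, edgeR adjusted p = 0.0339), where 2.78% of all features were called.

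Set against the base strain under TMM, all 7 fell in RLI1_depl, NIP1_depl and hrc1D, in which 72.5%, 62.5% and 35% of all features were called. The called features were 52.7% higher and 19.8% lower in RLI1_depl, 42.6% higher and 19.9% lower in NIP1_depl, and 21.1% higher and 13.8% lower in hrc1D, as percentages of all features. Among the 246 abundant features 180 were called lower and 32 higher in RLI1_depl, 168 lower and 39 higher in NIP1_depl, and 138 lower and 52 higher in hrc1D, so a lower call was common among features of this abundance. The log2 changes of the 7 lay between -4.6 (YGR160W) and -1.53 (YPR142C) in RLI1_depl, between -2.6 (YBR266C) and -0.93 (YMR290W-A) in NIP1_depl, and between -2.39 (YGR160W) and -0.6 (YMR290W-A) in hrc1D. In arf1D, where 9.64% were called, 7.21% higher and 2.43% lower, YKL083W rose by 0.65 (SE 0.14, adjusted p = 9.25e-05, edgeR) and YGR160W fell by 0.31 (adjusted p = 0.017, edgeR). Of the abundant features 67 were called higher and 21 lower in arf1D.

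With library totals as the scale the picture was split. In RLI1_depl minus base 3 members were higher, YPR142C at 1.26, YMR290W-A at 0.84 and YKL083W at 0.84, and 1 lower, YGR160W at -1.82, where 94.6% of all features were called. In NIP1_depl minus base YPR142C at 0.95 and YMR290W-A at 1.29 were higher and YNL174W at -0.33, YGR160W at -0.33 and YBR266C at -0.37 lower, where 81.3% were called. In hrc1D minus base YMR290W-A at 0.52 was higher and YPR142C at -0.38, YNL174W at -0.75 and YGR160W at -1.27 were lower, where 52% were called. In arf1D minus base YKL083W at 0.67 and YGR160W at -0.29 kept their calls, where 11.4% were called.

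YGR160W was lower against the base strain in all 4 strains under TMM, RLE size factors, library totals and a fit of only the features outside RefSeq with the members, and was called in all 16 of these. Over the 4 scalings its log2 change was -4.6 to -1.82 in RLI1_depl, -2.56 to -0.33 in NIP1_depl, -2.39 to -1.27 in hrc1D and -0.49 to -0.29 in arf1D. In arf1D the call was lost without both MTF libraries (-0.13, adjusted p = 0.493, edgeR) and in 6 of 8 fits that each left out 1 library, MTFi replicate 2, MTF replicate 2 and any of the 4 arf1D libraries. YKL083W was higher in arf1D under all 4, at 0.47 to 0.67, but was not called by DESeq2 (0.47, adjusted p = 0.0777). YNL174W was called lower under all 4 in NIP1_depl (-2.55 to -0.33) and hrc1D (-1.87 to -0.75), YBR266C in NIP1_depl (-2.6 to -0.37) and YPR142C in hrc1D (-1.5 to -0.38).

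**Figure D4:**
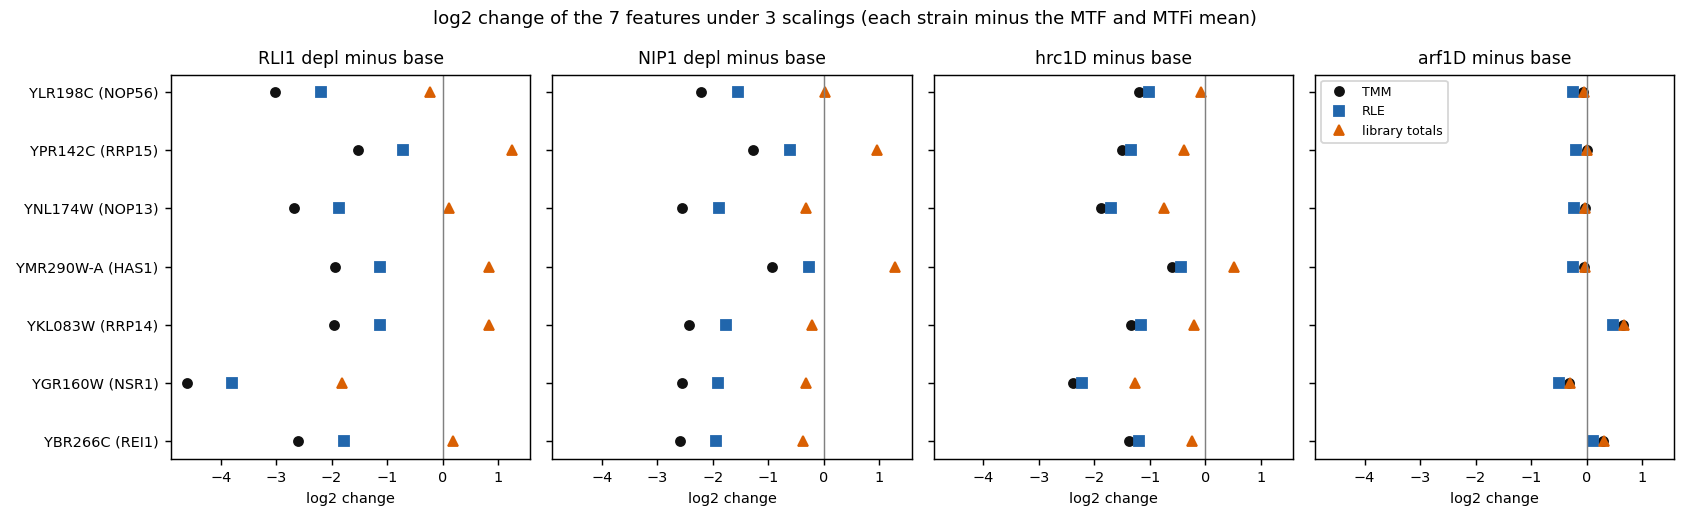
Log2 change of each feature (rows, with the partner gene in brackets) in each strain minus the mean of MTF and MTFi, under TMM (circles), RLE size factors (squares) and library totals (triangles). The scales spread the same feature most in RLI1_depl, where YGR160W ran between -4.6 and -1.82, and less in NIP1_depl, where it ran between -2.56 and -0.33. In both strains YPR142C and YMR290W-A lay below 0 under TMM and above 0 under library totals, whereas YGR160W stayed below 0 in all 4 panels.

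Against arf1D, whose libraries carry the same kind of labels as the other strains, the 7 again all fell under TMM in RLI1_depl, where 73.2% of all features were called (51.4% higher, 21.8% lower), in NIP1_depl, where 62.1% were called (40.3% higher, 21.8% lower), and in hrc1D, where 35.5% were called (18.7% higher, 16.8% lower). Among the 246 abundant features 196 were called lower and 24 higher in RLI1_depl, 184 lower and 34 higher in NIP1_depl, and 153 lower and 34 higher in hrc1D. A lower call was thus common among features of this abundance here too. The features called lower under all 4 scalings were YGR160W in RLI1_depl (-4.3 to -1.53), YNL174W, YKL083W and YBR266C in NIP1_depl, and YPR142C, YNL174W, YKL083W, YGR160W and YBR266C in hrc1D. YBR266C stood in NIP1_depl at -2.9 under TMM and -0.69 with library totals, and YKL083W at -3.08 and -0.88. YMR290W-A and YPR142C turned round in the depletion strains, at -1.89 and -1.52 under TMM against 0.88 and 1.25 under library totals in RLI1_depl, and at -0.88 and -1.27 against 1.33 and 0.94 in NIP1_depl. With library totals 2 members were called higher and 1 lower in RLI1_depl (94.3% of all features called), 2 higher and 3 lower in NIP1_depl (80.9%), and 1 higher and 5 lower in hrc1D (50.4%). YGR160W in NIP1_depl stood at -2.25 under TMM and -0.04 with library totals (adjusted p = 0.588, edgeR). YLR198C in hrc1D stood at -1.14 under TMM and -0.04 with library totals (adjusted p = 0.919, edgeR).

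The 2 depletion strains differed from each other at 4 of the 7 features under TMM, where 42.7% of all features were called, 23.8% higher and 18.9% lower. Among the 246 abundant features 160 were called, 47 higher and 113 lower. In RLI1_depl minus NIP1_depl YGR160W fell by 2.04, YMR290W-A by 1.01 and YLR198C by 0.81, and YKL083W rose by 0.48 (adjusted p = 5.12e-70, 6.17e-11, 3.37e-07 and 0.0298, edgeR). YGR160W, YMR290W-A and YKL083W kept direction and call under all 4 scalings, at -2.04 to -1.48, -1.01 to -0.45 and 0.48 to 1.04. The libraries of YKL083W overlapped under TMM, and its call was lost without a filter on low counts (0.51, adjusted p = 0.107, edgeR) and in 7 of 8 fits that each left out 1 library (adjusted p = 0.0508 to 0.181), all but that without NIP1_depl EcFMT replicate 1. YLR198C was not called with library totals (-0.25, adjusted p = 0.109, edgeR). YBR266C stood at 0 under TMM (95% interval -0.38 to 0.38) and was higher in RLI1_depl with library totals (0.56, adjusted p = 0.012, edgeR). With library totals 4 members were called higher and 2 lower, where 50.2% of all features were called.

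A second yardstick within the library was the sum of 7 features opposite ribosomal protein genes. The 7 features beside assembly genes held 30.7 ± 2.95 counts per 1000 counts on those in RLI1_depl, 32.6 ± 3.28 in NIP1_depl and 24.9 ± 2.22 in hrc1D, against 39.8 ± 0.303 in arf1D and 39.5 ± 6.16 in the base strain (SD, n = 4 each). No hrc1D, NIP1_depl or RLI1_depl library reached the lowest of arf1D, at 39.5. In the base strain the libraries ran between 34.7 and 47.8 and overlapped those of NIP1_depl, at 28.9 to 36.5. The yardstick itself held 25.0% of all counts in NIP1_depl, 20.1% in RLI1_depl and 20.2% in hrc1D, against 19.3% in arf1D and 21.4% in the base strain. As a share of the library the 7 features held 0.726% to 0.921% in NIP1_depl, which overlapped 0.755% to 0.774% in arf1D. YGR160W alone gave 6.74, 15.3 and 9.88 per 1000 in RLI1_depl, NIP1_depl and hrc1D, against 20.3 in arf1D and 22.7 in the base strain. YPR142C gave 5.7, 3.76 and 1.83 per 1000 in the same 3 strains, against 2.52 in arf1D and 2.27 in the base strain. In RLI1_depl YNL174W gave 6.09, YMR290W-A 4.03 and YKL083W 2.62 per 1000, against 5.82, 2.26 and 2.42 in arf1D. YLR198C gave 3.68 and YBR266C 1.84 there, against 4.37 and 2.12 in arf1D. The lower sum in RLI1_depl thus followed YGR160W, and the means of YPR142C, YNL174W, YMR290W-A and YKL083W did not share it.

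The wider pathway was followed through 4 lists of assembly genes. On the genes' own features, the 45 genes of snoRNPs and the small-subunit processome summed to 142.1 counts, the 43 of the nucleolar pre-60S particle to 217 counts, the 15 of the late cytoplasmic pre-60S particle to 131 counts and the 11 of the late pre-40S particle to 107.0 counts, and 4 genes of all of these could be tested. RRP1, a pre-60S factor, held 41.0 counts in RLI1_depl, 28.0 in NIP1_depl and 34.0 in hrc1D, against 6.0 in arf1D, and rose against arf1D by 2.14 (SE 0.641, adjusted p = 0.00173), 1.55 (SE 0.681, adjusted p = 0.0373) and 2.29 (SE 0.655, adjusted p = 0.00207, edgeR) in that order, where 51.4%, 40.3% and 18.7% of all features were called higher. Against the base strain, with 14.0 counts, RRP1 was not called in these 3 strains under TMM, at 0.75, 0.17 and 0.91 (adjusted p = 0.2, 0.858 and 0.221, edgeR). SDO1, which helps release the factor Tif6 from the 60S subunit, held 36.15 counts in RLI1_depl against 1.0 in arf1D and was called higher (adjusted p = 0.000128, edgeR). ALB1, a shuttling pre-60S factor, held 21.95 counts in RLI1_depl against 1.0 in arf1D and was called higher (adjusted p = 0.00352, edgeR), and no fold is given for these 2 at so few counts. RIO1, a kinase of late 40S maturation, held 31 counts in RLI1_depl and 9.0 in NIP1_depl and rose by 1.95 (SE 0.698, adjusted p = 0.0149, edgeR) between them. RLI1_depl held 36.15 of the 42.15 counts of SDO1, 21.95 of the 27.95 of ALB1 and 31 of the 55 of RIO1. These genes passed the filter on low counts through the RLI1_depl libraries. A higher call there was therefore largely set by the filter, and no conclusion is drawn from it. RRP1, with 6.0 counts in arf1D and 14.0 in the base strain, likewise passed through the strains in which it was higher. With library totals the changes of RRP1 against arf1D and of RIO1 were larger, at 3.3 to 4.8 and 2.56, in the same direction. On that scale 90.1%, 74% and 44.9% of all features were called higher against arf1D in RLI1_depl, NIP1_depl and hrc1D. In RLI1_depl minus NIP1_depl 41% were called higher. No conclusion is drawn from these changes either.

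Features numbered next to list genes on the other strand gave a wider view of the opposite side. Of 13 such features 12 were tested. In RLI1_depl minus arf1D 9 fell and 3 rose under TMM, with a median of -1.33, against 1.75 over all features and -2.65 for the 7, while 9 were higher and 1 lower with library totals. In NIP1_depl minus arf1D 6 fell and 3 rose, with a median of -0.33, against 1.19 over all features and -2.25 for the 7, while 9 were higher and 2 lower with library totals (median 1.87). In hrc1D minus arf1D 7 fell and 2 rose, with a median of -0.7, against 0.37 over all features and -1.66 for the 7, while 6 were higher and 3 lower with library totals (median 0.4). Of all features, 73.2% were called in RLI1_depl, 62.1% in NIP1_depl and 35.5% in hrc1D minus arf1D under TMM. Over the 246 features with a mean count of at least 50 the medians were -1.57, -1.37 and -0.67 in that order. Of these 246, 196 were called lower and 24 higher in RLI1_depl, 184 and 34 in NIP1_depl, and 153 and 34 in hrc1D. The medians of the 12 neighbours were thus near or above those of abundant features. With library totals 90.1% of all features were called higher and 4.21% lower in RLI1_depl, 74% and 6.92% in NIP1_depl, and 44.9% and 5.5% in hrc1D. The medians over all features were then 4.31, 3.13 and 1.29, so a higher call on that scale was common and not particular to the neighbours. Most of the 13 have other candidate genes in the numbering, so a feature's partner is not settled for them.

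Over the 10 group means of TMM-scaled log2 CPM, the features most like YBR266C among 144 with at least 2000 counts were YDR413C, numbered next to RRP17 (Pearson r = 0.98), and YOR102W, next to OST2 (r = 0.978). The same 2 led with library totals, at r = 0.692 and 0.654. The sum over the 6 nucleolar-side features was most like YPL044C, numbered between NOP4 and VPS16 (r = 0.996), YJL188C, next to RPL39 (r = 0.987), and YLL044W, next to RPL8B (r = 0.986). With library totals YPL044C led again (r = 0.831). The groups share the scaling and the depth of their libraries, so these correlations are a description.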

How the data were processed

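Each library's deposited table holds RSEM expected counts and TPM per feature. Per the submitters' processing notes, the authors used STAR 2.7.2b, RSEM 1.2.31 and the R64 build. The deposited expected counts were rounded for tests and used unrounded for sums and ratios, and the deposited TPM values were used as levels. Other units in the tables were the deposited feature lengths and posterior standard deviations. The members and gene lists were chosen with earlier results of these data known. The rule for named genes takes all 7 features and their partners, up to 3 called genes of smallest p per list, and the 3 most correlated features, of which 1 is not reported here.

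EdgeR 4.0.16 (R 4.3.3, quasi-likelihood, robust prior, TMM, filterByExpr at a minimum count of 10) was fitted with 10 group means over 20 libraries, leaving 10 residual degrees of freedom. The median prior degrees of freedom were infinite. For most features the p-values thus rest on a spread pooled over features, and not on their own 10 degrees of freedom. The common biological coefficient of variation was 0.11. A strain is the mean of its 2 groups. An SE is the size of the log2 change over the root of F. Exact permutation tests enumerated every split and were checked against scipy 1.17.1. The fits were also tested on simulated data. Library totals of 58090 to 505676 counts limit the precision most for YBR266C, at 16.0 to 182.0 counts per library. Intervals and floors cover counting error only, except those of log2 changes.

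Replicate numbers did not pair the groups: deviations correlated at 0.09 (MTF and MTFi), -0.22 (arf1D), -0.09 (hrc1D), -0.32 (NIP1_depl) and -0.03 (RLI1_depl) over 246 features. Alternatives were RLE size factors, library totals, DESeq2 1.42.0, no filter, all deposited features, only the libraries compared, a replicate block, other forms of the ratio and leaving out each library. Added after seeing the data were a fit of only features outside RefSeq with the members, a crossed replicate block, the base strain without MTF and the ratio to features opposite ribosomal protein genes.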

Additional observations from a re-analysis of the deposited data

Results flagged for a closer look

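The EcFMT effect on YGR160W, beside NSR1, differed between the 4 strains by a test of the difference itself (adjusted p = 0.0134, edgeR). EcFMT minus R42L was 0.65 in RLI1_depl, -0.28 in NIP1_depl, -0.33 in hrc1D and 0.02 in arf1D. With library totals the values were 0.35, -0.37, -0.31 and 0.03 (adjusted p = 0.0103). Without any filter on low counts the adjusted p was 1, and without 1 library it ran between 0.0147 and 0.918. It was not called without any of the 4 RLI1_depl libraries, any of the 4 NIP1_depl libraries or hrc1D R42L replicate 1.

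Of 40 sets of 4 libraries examined, 2 had a library far from the others by Dixon's ratio, where chance flags about 1 in 20. Both concern YLR198C, opposite NOP56. In the base strain MTF replicate 1 stood at 799 TPM, apart from 1268 to 1353 TPM in the other 3 libraries (gap over range 0.846). In NIP1_depl R42L replicate 2 stood at 1223 TPM, apart from 946 to 984 TPM in the other 3 (gap over range 0.862).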

How the results depend on the processing

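Of 91 member changes under TMM, 54 kept direction and side of the threshold with library totals, 83 with RLE size factors, 83 with DESeq2, 76 without a filter, 77 in the fit of features outside RefSeq with the members, 86 with only the libraries compared, 90 with the replicate block and 91 with all deposited features. Why counts differ between scales was not tested.

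Members called in MTF minus MTFi numbered 4 under RLE and 0 without a filter, against 2, and in RLI1_depl EcFMT minus R42L 2 under RLE, 2 with only the libraries compared, and 0 with library totals, without a filter or outside RefSeq, against 4. In NIP1_depl EcFMT minus R42L 1 was called with only the libraries compared and 1 under the crossed replicate block, a crossing chosen from the data, against 0. DESeq2 called 1 in arf1D minus base against 2. Library totals called 4 of 7 in hrc1D minus base and in RLI1_depl minus base and 3 of 7 in RLI1_depl minus arf1D. The test between strains called 0 without a filter and 2 with only the libraries compared, against 1. The replicate block called 2 in MTF minus MTFi, 5 in RLI1_depl EcFMT minus R42L, where YMR290W-A was added (0.71, adjusted p = 0.0488, edgeR), and 0 in the other 3 strains. With the replicate block the REI1-side ratio for EcFMT minus R42L was -0.01 (exact permutation p = 0.641).

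With each library left out in turn, calls ran between 1 and 3 in MTF minus MTFi, 0 and 3 in RLI1_depl EcFMT minus R42L, 1 and 2 in arf1D minus base, and 0 and 1 in the test between strains. The log2 REI1-side ratio ran between 0.28 and 0.67 in arf1D minus base, 0.33 and 0.72 in hrc1D minus base, 0.45 and 0.84 in RLI1_depl minus base, -0.02 and 0.11 in hrc1D minus arf1D, and -0.05 and 0.02 in EcFMT minus R42L. Without YGR160W that ratio turned to -0.01 in hrc1D minus base, -0.28 in RLI1_depl minus base, -0.28 in hrc1D minus arf1D and -0.56 in RLI1_depl minus arf1D. As a mean of 6 log2 ratios it turned to -0.14 in hrc1D minus arf1D and -0.25 in RLI1_depl minus arf1D, and without the MTF libraries to 0.04 in NIP1_depl minus base.

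Member changes that turned round with library totals were, in RLI1_depl minus base, YPR142C 1.26, YNL174W 0.11, YMR290W-A 0.84, YKL083W 0.84 and YBR266C 0.19, and in NIP1_depl minus base YLR198C 0.02, YPR142C 0.95 and YMR290W-A 1.29. YMR290W-A turned to 0.52 in hrc1D minus base and 0.55 in hrc1D minus arf1D. In RLI1_depl minus arf1D YPR142C turned to 1.25, YNL174W 0.13, YMR290W-A 0.88 and YKL083W 0.17, and in NIP1_depl minus arf1D YLR198C 0.06, YPR142C 0.94 and YMR290W-A 1.33 (0.14 outside RefSeq). In RLI1_depl minus NIP1_depl YPR142C turned to 0.31, and YNL174W to 0.43 with library totals, 0.03 under RLE and DESeq2 and 0.10 outside RefSeq. In MTF minus MTFi YNL174W turned to 0.16 under RLE and DESeq2, 0.06 with library totals, 0.10 with only the libraries compared and 0.08 outside RefSeq. In RLI1_depl EcFMT minus R42L YKL083W turned to -0.01 with library totals and outside RefSeq. YMR290W-A in arf1D minus base turned to 0.11 without the MTF libraries.

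Without a filter, EcFMT minus R42L turned to 0.10 for YNL174W, 0.06 for YMR290W-A, 0.09 for YKL083W and 0.02 for YBR266C in arf1D, and to 0.10 for YLR198C, 0.15 for YMR290W-A, 0.13 for YKL083W and 0.06 for YBR266C in hrc1D. Outside RefSeq YLR198C stood at -0.02 and YGR160W at -0.01 in arf1D.

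Left-out libraries turned uncalled values with these ranges. In MTF minus MTFi YNL174W ran between -0.29 and 0.21 and YKL083W between -0.07 and 0.36. In arf1D EcFMT minus R42L YLR198C ran between -0.04 and 0.05, YPR142C -0.09 and 0.21, YNL174W -0.15 and 0.11, YMR290W-A -0.16 and 0.03, YKL083W -0.20 and 0.14, YGR160W -0.01 and 0.03, and YBR266C -0.27 and 0.07. In hrc1D YNL174W ran between -0.02 and 0.36, YMR290W-A -0.18 and 0.01, YKL083W -0.34 and 0.33, and YBR266C -0.26 and 0.01. In arf1D minus base YLR198C ran between -0.20 and 0.18, YNL174W -0.13 and 0.13, and YMR290W-A -0.15 and 0.14.

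Over all features, calls in MTF minus MTFi numbered 43 under RLE (31 higher, 12 lower), 39 with library totals (20 higher, 19 lower), 37 outside RefSeq and 9 without a filter, against 24 (4 higher, 20 lower). In RLI1_depl EcFMT minus R42L they numbered 69 with only the libraries compared, 24 outside RefSeq, 10 without a filter and 37 with library totals (11 higher, 26 lower), against 45 (36 higher, 9 lower). In arf1D minus base 66 were called without a filter against 135. Library totals called 672 higher and 57 lower in hrc1D minus base, 1060 higher and 79 lower in NIP1_depl minus base, and 1276 higher and 50 lower in RLI1_depl minus base, against 296 and 194, 597 and 279, and 738 and 278 under TMM. Against arf1D they called 629 higher and 77 lower, 1037 higher and 97 lower, and 1262 higher and 59 lower in the same order, against 262 and 235, 565 and 305, and 720 and 305. In RLI1_depl minus NIP1_depl library totals called 574 higher and 130 lower and DESeq2 308 in all, against 333 and 265. The fit outside RefSeq called 295, 355 and 352 against the base strain, 304, 356 and 357 against arf1D in the same order, and 233 in RLI1_depl minus NIP1_depl, on fewer features. The test between strains called 20 under RLE, 22 with DESeq2, 31 with only the libraries compared and 1 without a filter, against 10.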
